A study of Arabidopsis thaliana with 114 samples.

Results

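Aquaporins are channel proteins that let water and small uncharged molecules cross membranes, and the values described here are the transcript levels of the 35 aquaporin genes of Arabidopsis thaliana. The members were taken by their gene identifiers from the 28712 genes counted in each library, without use of any measured value. The plasma membrane intrinsic proteins form 2 subfamilies, with 5 PIP1 genes, PIP1-1 (AT3G61430), PIP1-2 (AT2G45960), PIP1-3 (AT1G01620), PIP1-4 (AT4G00430) and PIP1-5 (AT4G23400), and 8 PIP2 genes, PIP2-1 (AT3G53420), PIP2-2 (AT2G37170), PIP2-3 (AT2G37180), PIP2-4 (AT5G60660), PIP2-5 (AT3G54820), PIP2-6 (AT2G39010), PIP2-7 (AT4G35100) and PIP2-8 (AT2G16850). The 10 tonoplast intrinsic proteins are TIP1-1 (AT2G36830), TIP1-2 (AT3G26520), TIP1-3 (AT4G01470), TIP2-1 (AT3G16240), TIP2-2 (AT4G17340), TIP2-3 (AT5G47450), TIP3-1 (AT1G73190), TIP3-2 (AT1G17810), TIP4-1 (AT2G25810) and TIP5-1 (AT3G47440). The 9 nodulin 26-like intrinsic proteins are NIP1-1 (AT4G19030), NIP1-2 (AT4G18910), NIP2-1 (AT2G34390), NIP3-1 (AT1G31885), NIP4-1 (AT5G37810), NIP4-2 (AT5G37820), NIP5-1 (AT4G10380), NIP6-1 (AT1G80760) and NIP7-1 (AT3G06100). The 3 small basic intrinsic proteins are SIP1-1 (AT3G04090), SIP1-2 (AT5G18290) and SIP2-1 (AT3G56950). Member names are written with a hyphen in place of the usual semicolon. RNA sequencing of polyA RNA was done on shoots and roots of seedlings raised in phytatrays on 1% sucrose and 1 mM KNO3, which every group shared. Seedlings were then given nitrogen as 20 mM KNO3 with 20 mM NH4NO3 (60 mM nitrogen in all, here called N), or 20 mM KCl as the control, and harvested at 5, 10, 15, 20, 30, 45, 60, 90 and 120 min, beside untreated seedlings at time 0. The labels carry no unit of time, read here as minutes, and name no ecotype, age or mutant allele. The treatment label is absent for many libraries and says KNO3 for a few, so the N supply is that of the treatment protocol. With 3 libraries for each of 38 groups there were 114 libraries, and nothing in the labels says whether replicates came from separate cultures, so that p-values measure the spread between these libraries, which may be technical. Since the arms differ in nitrate, ammonium, chloride and total salt, these cannot be told apart. The comparisons ask which aquaporins respond to N supply in each organ and when.

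An aquaporin folds into a pore lined by a pair of short loops, each carrying the signature Asn-Pro-Ala, and the proteins assemble as tetramers. PIP proteins carry most of the water that moves across the plasma membrane of roots and leaves, and PIP1 proteins often need a PIP2 partner to reach that membrane. TIP proteins serve the vacuole, where several also pass urea, ammonia or hydrogen peroxide. NIP proteins carry solutes such as boric acid, arsenite and lactic acid, and SIP proteins lie in the endoplasmic reticulum. Nitrogen supply is known as a condition under which root water uptake and aquaporin activity change.

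The first signature box is shown for 8 members named in the results, because its last residue sets the SIP genes and a pair of NIP genes apart from the others. Each line gives 45 coding bases read 5′ to 3′ from RefSeq TAIR10.1, with the codons for Asn, Pro and the third residue in capitals.
PIP1-5: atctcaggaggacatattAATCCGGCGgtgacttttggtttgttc
PIP2-6: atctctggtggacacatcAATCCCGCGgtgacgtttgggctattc
TIP1-2: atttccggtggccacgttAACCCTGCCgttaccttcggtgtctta
TIP4-1: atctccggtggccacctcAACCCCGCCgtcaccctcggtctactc
NIP1-1: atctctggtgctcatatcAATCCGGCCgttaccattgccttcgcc
NIP5-1: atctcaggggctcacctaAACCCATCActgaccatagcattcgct
SIP1-1: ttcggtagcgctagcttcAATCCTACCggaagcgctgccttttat
SIP2-1: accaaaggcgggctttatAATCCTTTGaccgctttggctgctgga
The third codon is an alanine codon in 30 of the 35 members. It is TCA (serine) in NIP5-1, TCC (serine) in NIP7-1, ACC (threonine) in SIP1-1, TGT (cysteine) in SIP1-2 and TTG (leucine) in SIP2-1, so that all 3 SIP genes and the boric acid channels NIP5-1 and NIP7-1 depart from the usual box.

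PIP2-2 and PIP2-3 are the closest pair among the 595 pairs of members, and they are shown because their counts can share reads. Their coding sequences are 94.76% identical, differ at 45 of 858 aligned bases and share a run of 242 identical bases. The next pairs are NIP4-1 with NIP4-2 at 88.03% and PIP1-1 with PIP1-2 at 87.57%. Coding bases 403 to 492 are shown, with 12 differences in capitals, as the stretch of 90 aligned bases chosen for the most differences.
PIP2-2: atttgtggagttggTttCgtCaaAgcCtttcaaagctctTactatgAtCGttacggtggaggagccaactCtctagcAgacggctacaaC
PIP2-3: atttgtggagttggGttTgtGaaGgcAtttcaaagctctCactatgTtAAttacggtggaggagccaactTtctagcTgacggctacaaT
Root files set aside reads placed at several sites and shoot files have 0 such reads, so reads that fit both genes may have been handled differently by organ. The settings used are not given in the sources used here, so the split between PIP2-2 and PIP2-3 is uncertain wherever it is quoted. The reference annotation places a gene on the opposite strand across part of TIP2-1, TIP3-1, TIP3-2, TIP5-1, NIP2-1, NIP6-1, SIP1-2 and SIP2-1. The library kit marks strand, but whether counting used it is not stated. Within these overlaps, of 26 bases for NIP6-1 to 1432 for NIP2-1, reads of the member and of its antisense partner cannot be told apart.

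Depth differed between the organs. Gene counts per library ran from 5710270 to 43570800 in shoots (median 15090800) and from 13878700 to 143270000 in roots (median 37723800), and 1 shoot KCl library at 90 min with 1302 counts was left out, which leaves n = 2 there. Every other group has n = 3. Levels are given in CPM, counts scaled per 1000000 gene counts on library sizes scaled by the trimmed mean of M values. All 6 photosynthesis markers were higher in shoots at time 0 by 4.92 to 7.46 on the log2 scale, and 5 of 6 root markers were higher in roots. The sixth, SCR, did not pass (log2 difference 0.22, adjusted p = 0.155). Root libraries had between 7.05% and 48.6% of their reads set aside as placed at several sites and shoot libraries had 0, so organ and handling of such reads cannot be told apart. The highest root shares were in replicate 2, at 48.6% (KCl, 15 min), 36.2% (KCl, 60 min) and 35.2% (N, 15 min), and the next was 18.6%. The part of these shares in the results at 15 and 60 min was not tested.

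The 12 root libraries at 10 and 15 min stand apart from the other 45 root libraries in both arms. Their summed aquaporin level was 5005 to 8875 CPM (median 6467), against 2291 to 3671 CPM (median 2954) in the rest of the roots and 2378 to 3631 CPM (median 2920) in shoots. The 6 root markers summed to 368 to 839 CPM in these 12 libraries and to 150.3 to 326 CPM in other root libraries, and the 20 most counted genes took 7.37% to 13.8% of counts against 4.39% to 7.93%. The photosynthesis markers also summed to 152 to 574 CPM there against 54.0 to 309 CPM. The part of these shifts in the aquaporin results was not tested, and root counts over all times are given with and without these libraries.

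Before treatment the plasma membrane genes dominated the aquaporin transcript pool of both organs. Levels between genes were compared per kilobase of coding sequence. PIP1 genes held 37.3% of the summed level of all 35 members in shoots and 40.1% in roots, and PIP2 genes held 28.1% and 28.5%. TIP genes held 19.2% in shoots and 8.54% in roots, NIP genes 6.02% and 16.1%, and SIP genes 9.42% and 6.68%. The root NIP share includes 6.86% from NIP2-1, whose root libraries ran from 84.8 to 425 CPM per kb. PIP1-2, a PIP1 gene tied to root water conductance, stood first in both organs, at 536 ± 47.9 CPM per kb in shoots and 722 ± 49.3 CPM per kb in roots (SD, n = 3), or 16.9% and 24.6% of the sum.

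In shoots, PIP1-2 did not overlap with the next member across the 3 libraries. PIP2-1 (388 ± 36.9 CPM per kb), TIP1-2 (354 ± 60.8) and PIP1-4 (349 ± 28.0) followed with overlapping ranges, and then PIP2-6 (214 ± 11.6), and the first 5 members together held 58.1% of the sum. SIP1-1, TIP1-1 and PIP2-7 lay between 146 and 189 CPM per kb. PIP1-5, SIP2-1, PIP1-1, NIP5-1, PIP1-3, TIP2-1, NIP6-1, PIP2-2, PIP2-5, PIP2-3, NIP1-2, TIP2-2 and PIP2-8 ran from 102 down to 10.2 CPM per kb. SIP1-2, NIP2-1, TIP4-1, TIP3-1, PIP2-4, NIP1-1 and NIP3-1 ran from 8.18 to 1.41 CPM per kb, and TIP2-3, NIP7-1, TIP3-2 and TIP1-3 were at 0.169 or less. TIP5-1, NIP4-1 and NIP4-2, known from pollen, had 0 counts at time 0 and 2, 1 and 5 counts over all 56 shoot libraries.

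In roots the second rank was again PIP2-1 (302 ± 9.12 CPM per kb), a major plasma membrane water channel, followed by PIP2-7 (241 ± 8.32) and PIP2-2 (228 ± 37.7). NIP2-1, which carries lactic acid, followed at 201 ± 193 CPM per kb, with 1 library far above the other 2. PIP1-3 and NIP5-1 were at 195 and 191 CPM per kb. SIP1-1, PIP1-4, PIP1-1, TIP1-2, TIP1-1, SIP2-1 and NIP1-1 ran from 121 to 52.7 CPM per kb, and PIP1-5, TIP4-1, PIP2-5, PIP2-8, PIP2-3, TIP2-1, TIP2-2 and NIP1-2 from 32.5 to 12.5. NIP6-1, TIP2-3, PIP2-4, TIP3-1, NIP3-1, SIP1-2 and NIP4-2 ran from 9.25 to 1.85 CPM per kb. PIP2-6 was at 0.984, and NIP7-1, TIP3-2, TIP1-3, TIP5-1 and NIP4-1 were at 0.283 CPM per kb or less.

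**Figure D1:**
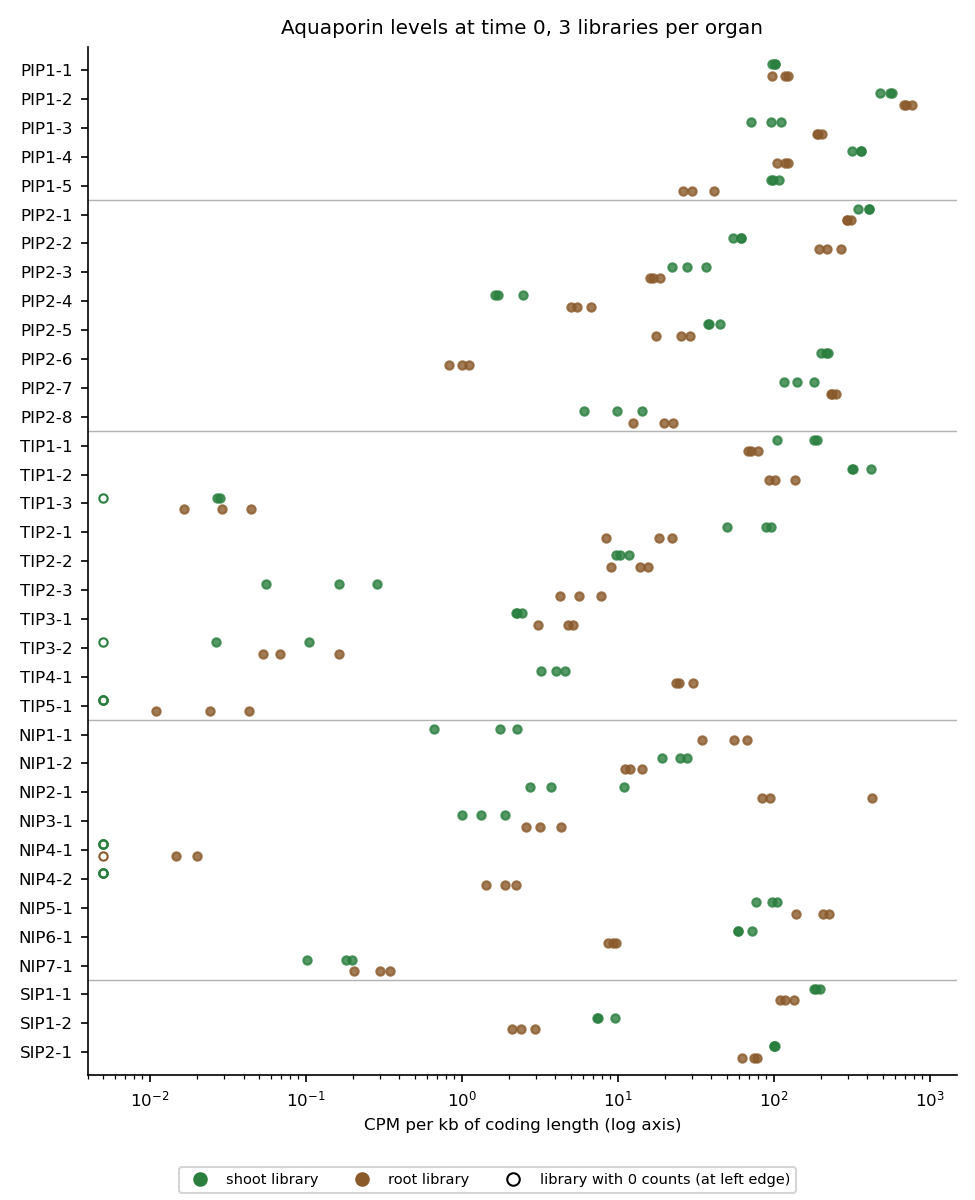
Level of each aquaporin in untreated shoots and roots at time 0, as CPM per kb of coding sequence on a log axis, grouped by subfamily, with 1 point per library (n = 3 per organ) and open points at the left edge for a count of 0. PIP1-2 is highest in both organs, and PIP2-6 and NIP1-1 show wide gaps between the organs in opposite directions.

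Most aquaporins differed between the organs at time 0, as did most genes. Of the 32 members tested, 28 passed an adjusted p of 0.05, 14 higher and 14 lower in shoots, against a background of 79.5% of all genes tested (36.1% higher in shoots and 43.4% lower). The median log2 difference of the members was -0.35 and that of all genes -0.16. Setting the member with 0 shoot counts at its bound left the median of the members at -0.35. By subfamily, PIP1 had 2 higher and 2 lower of 5, PIP2 had 4 and 4 of 8, TIP had 3 and 3 of 8, NIP had 2 higher and 5 lower of 8, and SIP had 3 higher of 3. PIP1-1, TIP2-2, TIP3-2 and NIP7-1 did not pass. In such bulk samples, fewer cells of a type and less RNA per cell cannot be told apart.

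PIP2-6, a plasma membrane channel known from leaves, was the member most biased to shoots. Its shoot libraries had 193, 189.6 and 174 CPM and its root libraries 0.870, 0.724 and 0.975 CPM at time 0. No root library at time 0 reached 1 CPM, and the organs were far from overlapping then (log2 difference 7.76, SE 0.53, adjusted p = 3.05e-23). NIP6-1, a boric acid channel of shoot nodes, had 66.7, 54.5 and 54.4 CPM in shoots and 8.58, 8.91 and 7.97 CPM in roots. Every shoot library exceeded every root library for it (log2 difference 2.78, SE 0.21, adjusted p = 1.59e-20).

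Toward roots, 4 members had the widest differences, 3 of them NIP genes. NIP4-2 had 0 counts in each shoot library and 1.23, 1.61 and 1.90 CPM in roots, so that it was at least 62.3-fold lower in shoots when 3 counts over the shoot group serve as the floor. NIP2-1 had 9.59, 3.23 and 2.40 CPM in shoots and 81.9, 368 and 73.5 CPM in roots. Root replicate 2 stood far above the other 2 root libraries, which still exceeded every shoot library (log2 difference -5.17, SE 0.60, adjusted p = 1.43e-12). NIP1-1, an arsenite channel, had 2.03, 0.597 and 1.58 CPM in shoots and 60.2, 30.8 and 49.8 CPM in roots, without overlap (log2 difference -5.14, SE 0.45, adjusted p = 1.4e-17). TIP2-3, a vacuolar ammonia channel, had 0.0422, 0.124 and 0.216 CPM in shoots and 3.21, 4.27 and 5.93 CPM in roots, again without overlap (log2 difference -4.95, SE 0.52, adjusted p = 3.38e-14). Among the rest, TIP4-1 (-2.73) and PIP2-2 (-1.94) were lower in shoots on the log2 scale. TIP2-1 (2.27), SIP1-2 (1.72), TIP1-2 (1.67), PIP1-5 (1.65) and PIP1-4 (1.59) were higher in shoots.

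In shoots, the share of members that differed between N and KCl did not exceed that of all genes. Over all 9 times together, 12 of the 28 members tested differed between N and KCl, against 47.4% of all genes. At the time of smallest p, 5 of the 12 were higher with N (background 23.7%) and 7 were lower (background 23.7%). The 12 were 3 of 5 PIP1 genes, all lower, 5 of 8 PIP2 genes (3 higher and 2 lower), 2 of 6 TIP genes, both higher, 2 of 6 NIP genes, both lower, and 0 of 3 SIP genes. For the SIP genes edgeR and DESeq2 both gave 0, with 1 member at an unadjusted p under 0.05. Without N replicate 1 the count over all times was 7. TIP1-3, TIP2-3, TIP3-2, TIP5-1, NIP4-1, NIP4-2 and NIP7-1 had too few counts in shoots to be tested.

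The number of members called in shoots grew along the course with the background. At 5, 10 and 15 min edgeR and DESeq2 both called 0 members, with 3, 2 and 2 at an unadjusted p under 0.05, where 0.0574%, 0.890% and 1.77% of all genes were called. TIP3-1 was the 1 member called at 20 min (background 3.11%) and PIP1-5 the 1 at 30 min (6.72%). Later counts were 6 for 45 min, against a background of 25.0%, and 6 for 60 min, against 26.3%. For 90 min 10 members were called, against 37.3%, and for 120 min 9, against 36.9%. At 90 min 8 of the 10 were lower (18.6% of all genes), and at 120 min 5 of the 9 (17.8%). At 45 min 2 were left without KCl replicate 2 or N replicate 3 and 3 without N replicate 1, at 60 min 3 without N replicate 1, and at 90 min 6 without N replicate 3. At 120 min the median log2 fold change was -0.09 over the members tested and -0.03 over all genes.

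Markers and read shares moved with N in shoots too. The 6 root markers summed to more with N at every time from 10 to 120 min without overlap, with 120.9 to 123.2 CPM against 69.7 to 80.7 CPM at 30 min, 112 to 130.2 CPM against 64.5 to 85.9 CPM at 45 min and 75.9 to 95.9 CPM against 49.8 to 70.2 CPM at 90 min. SCR, which passed no test between the organs at time 0, made up 95.5% of this sum in the median shoot library and was called higher from 20 to 90 min. Of the other 5, EXPA7 was called lower at 90 min, PLT1 higher at 120 min, and RHD6 was not tested. In shoot libraries the medians of these 5 ran from 0.132 CPM for RHD6 to 2.35 CPM for CASP1, and RHD6, EXPA7, PLT1 and COBL9 were at 0 in 12, 11, 1 and 1 of 56 libraries. The photosynthesis markers summed to less with N without overlap at 15 min (4341 to 4737 CPM against 6782 to 7778 CPM) and 30 min (4748 to 6384 CPM against 6902 to 8758 CPM), with 0 of 6 called at either time. Reads assigned to no gene took a lower share with N, without overlap, from 5 to 30 min (1.99% to 2.22% against 3.57% to 4.24% at 5 min) and a higher share at 60 and 90 min, also without overlap (3.24% to 4.50% against 2.84% to 3.01% at 90 min). The part of these shifts in the shoot results was not tested.

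**Figure D2:**
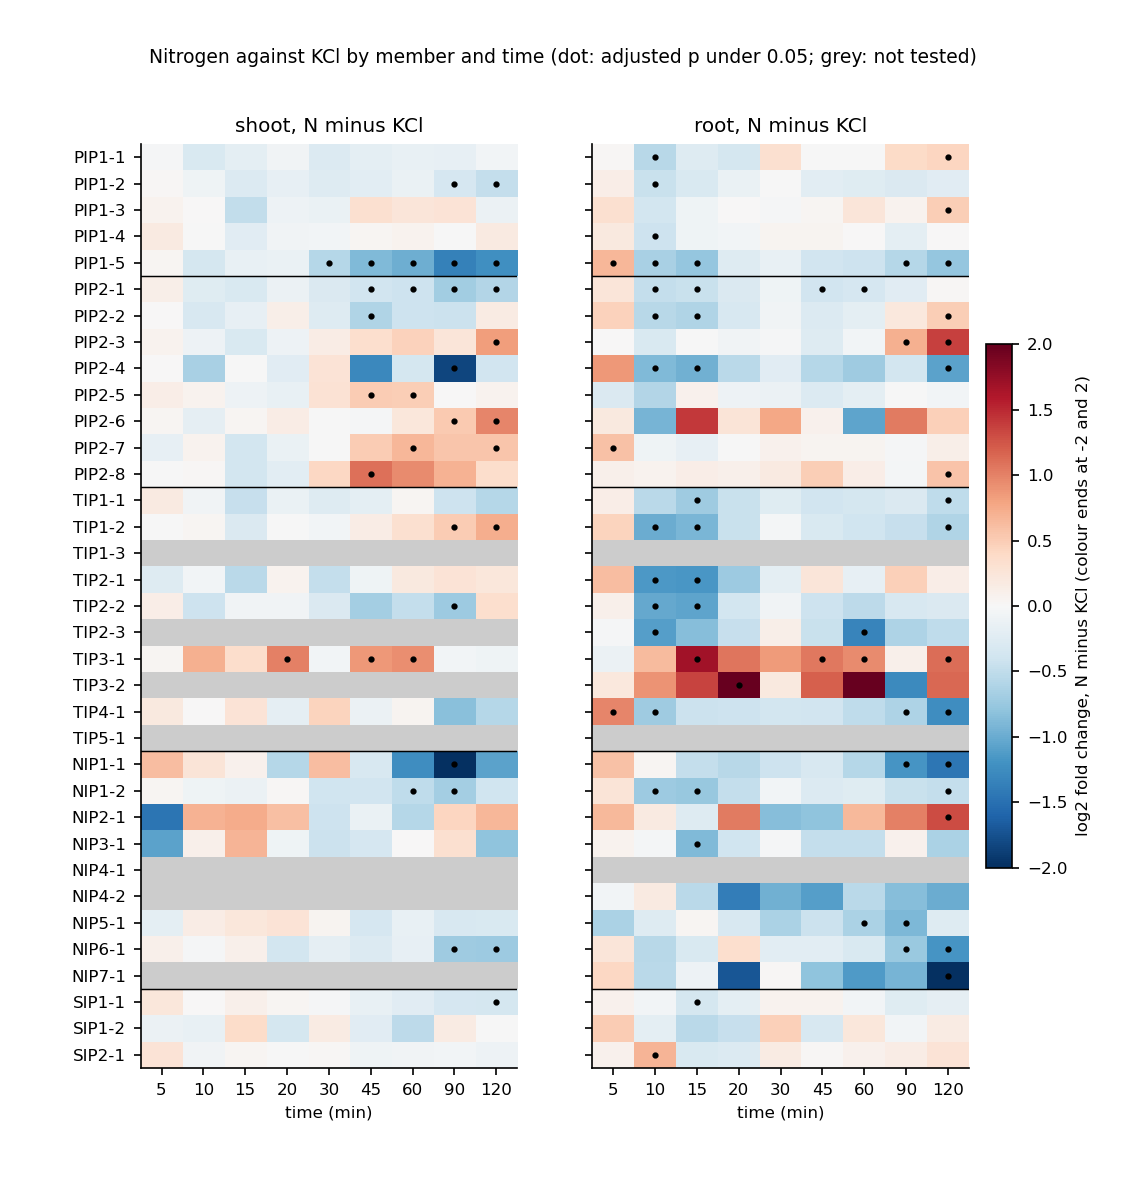
Log2 fold change of N against KCl as a colour scale for each aquaporin (rows, by subfamily) at each time after supply (columns, min) in shoots and roots, with a dot where the adjusted p was under 0.05 and grey for members not tested. PIP1-5 lies further below KCl at each time from 30 to 90 min in shoots, while in roots most dots lie at 10, 15 and 120 min.

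Among the PIP1 genes, PIP1-5 had the smallest p of all members in shoots. At 90 min it had 42.2, 38.2 and 45.6 CPM in the N libraries and 103 and 113 CPM in the 2 KCl libraries. All N libraries lay below both KCl libraries, a 2.56-fold lower level (log2 fold change -1.36, SE 0.20, adjusted p = 3.48e-07). The means were 42.0 ± 3.73 CPM (SD, n = 3) with N and 108 ± 7.34 CPM (SD, n = 2) with KCl. It was called lower at 30, 45, 60, 90 and 120 min with log2 fold changes of -0.57, -0.89, -0.97, -1.36 and -1.22. PIP1-2 had 424, 337 and 357 CPM with N and 519, 492 and 558 CPM with KCl at 120 min. The groups did not overlap (log2 fold change -0.48, SE 0.12, adjusted p = 0.00182), although leaving out KCl replicate 3 at every time raised the adjusted p over all times from 0.00278 to 0.0961. PIP1-1 passed over all times (adjusted p = 0.0214) but at no single time, and lost that call in 5 of 6 fits without 1 replicate (without KCl replicate 1 or 3 or N replicate 1, 2 or 3), with an adjusted p up to 0.117.

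The PIP2 genes moved in both directions in shoots. PIP2-6, the shoot-biased member, had 404, 337 and 383 CPM with N and 189, 184 and 203 CPM with KCl at 120 min. Every N library exceeded every KCl library, 1.96-fold on average (log2 fold change 0.97, SE 0.11, adjusted p = 2.24e-09), and it was also called at 90 min with a log2 fold change of 0.53. The means were 375 ± 34.2 CPM (SD, n = 3) with N and 192 ± 10.2 CPM (SD, n = 3) with KCl. PIP2-1 had 234, 171 and 193 CPM with N and 280.2 and 365 CPM with KCl at 90 min. Its N libraries were lower without overlap (log2 fold change -0.69, SE 0.15, adjusted p = 0.000355), and it was called lower at 45, 60 and 120 min too (-0.39, -0.42 and -0.58). A fit of only the libraries compared gave an adjusted p of 0.0608 for PIP2-1 at 90 min.

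PIP2-7 had 198, 207 and 175 CPM with N and 157, 95.7 and 116 CPM with KCl at 60 min. The N libraries were higher without overlap (log2 fold change 0.66, SE 0.22, adjusted p = 0.0227), but the call was lost without KCl replicate 2 (0.153), KCl replicate 3 (0.0749), N replicate 1 (0.0616) or N replicate 2 (0.0565). PIP2-2 had 30.6, 44.5 and 26.7 CPM with N and 44.5, 57.3 and 53.4 CPM with KCl at 45 min. N replicate 2 lay next to KCl replicate 1, the others lay apart (log2 fold change -0.60, SE 0.18, adjusted p = 0.0134), and the call was lost without KCl replicate 2 (0.0617), KCl replicate 3 (0.0609), N replicate 1 (0.0693) or N replicate 3 (0.138). PIP2-3 was higher at 120 min (log2 fold change 0.84, SE 0.21, adjusted p = 0.00169), where its split from PIP2-2 is uncertain, and its call over all times (adjusted p = 0.0218) was lost without KCl replicate 1, 2 or 3 or N replicate 1, with an adjusted p up to 0.213.

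Of the TIP genes, TIP1-2, an abundant vacuolar water channel, had 580.2, 539 and 556 CPM with N and 368, 267 and 383 CPM with KCl at 120 min. The N libraries were all higher (log2 fold change 0.72, SE 0.18, adjusted p = 0.00106), and the call over all times (adjusted p = 0.0102) was lost without N replicate 1 (adjusted p = 0.118). TIP3-1, known from seed storage vacuoles, stayed at a low level, with 3.63, 2.65 and 2.67 CPM with N and 1.09, 1.34 and 1.99 CPM with KCl at 20 min. Its groups did not overlap (log2 fold change 1.01, SE 0.28, adjusted p = 0.03), and it was called at 45 and 60 min as well (0.87 and 0.93). The call at 20 min was lost without KCl replicate 1 (0.218), KCl replicate 2 (0.134), N replicate 1 (0.304) or N replicate 2 (0.0529), whereas the test over all times held (adjusted p = 0.0009). The gene on the opposite strand across TIP3-1 had a log2 fold change of 0.15 at that time.

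Both NIP genes that passed in shoots were lower with N. NIP6-1 had 23.9, 25.5 and 25.7 CPM with N and 40.6, 40.3 and 44.4 CPM with KCl at 120 min. The groups were well apart (log2 fold change -0.73, SE 0.17, adjusted p = 0.000704), and without KCl replicate 3 the adjusted p over all times went from 0.00103 to 0.0711. The gene that overlaps the end of NIP6-1 on the opposite strand by 26 bases went the other way, with a log2 fold change of 1.84. NIP1-2, a close relative of NIP1-1, had 17.0, 14.5 and 14.4 CPM with N and 26.3 and 23.2 CPM with KCl at 90 min. All N libraries were lower (log2 fold change -0.68, SE 0.18, adjusted p = 0.00207), and the call was lost without KCl replicate 1 (0.0644), which leaves 1 KCl library there.

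The other 16 members tested in shoots did not pass over all times. At single times, PIP2-5 was called higher at 45 and 60 min (0.51 and 0.50) and PIP2-8 at 45 min (1.09). TIP2-2 (-0.73), PIP2-4 (-1.83) and NIP1-1 (-3.02) were called lower at 90 min, the last from means of 0.546 CPM with N and 4.16 CPM with KCl. PIP2-4 was low too, at 1 to 106 counts in the 56 shoot libraries. SIP1-1 was called lower at 120 min (-0.35). PIP1-3, PIP1-4, TIP1-1, TIP2-1, TIP4-1, NIP2-1, NIP3-1, NIP5-1, SIP1-2 and SIP2-1 passed neither over all times nor at a single time.

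The N effect itself changed between 30 and 120 min for 2 shoot members, against a background of 16.9%, and for 1 without N replicate 2. For PIP2-6 the log2 effect was 0.98 higher at 120 min (SE 0.16, adjusted p = 1e-05). For TIP1-2 it was 0.78 higher (SE 0.25, adjusted p = 0.0256).

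In roots, most members differed between N and KCl, including every TIP and NIP gene tested, and most of these were lower with N. Over all 9 times, 27 of the 32 members tested differed between N and KCl, against 61.0% of all genes. At the time of smallest p, 7 were higher (background 29.3%) and 20 were lower (background 31.7%). All 8 TIP genes tested passed (2 higher and 6 lower), as did all 8 NIP genes tested (1 higher and 7 lower). PIP1 genes passed in 4 of 5 cases (1 higher and 3 lower), PIP2 genes in 5 of 8 (2 higher and 3 lower) and SIP genes in 2 of 3 (1 higher and 1 lower). Without the libraries at 10 and 15 min, 22 of 31 members passed, against 55.0% of all genes. TIP2-1 (0.433), TIP2-2 (0.319), SIP2-1 (0.0905) and NIP3-1 (0.198) then missed the adjusted p, and TIP3-2 was no longer tested. TIP1-3, TIP5-1 and NIP4-1 had too few root counts to be tested.

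The calls in roots came in an early and a late group. At 5 min 3 members were called, all higher with N: PIP1-5 (0.67), PIP2-7 (0.59) and TIP4-1 (0.97), against 1.97% of all genes called and 1.20% called higher. At 10 min 14 were called, 13 of them lower (background 17.4%, with 9.41% lower). At 15 min it was 12, of which 11 were lower (25.3%, with 17.0% lower). At 10 min the median log2 fold change was -0.46 over the members tested and -0.06 over all genes, and the TIP genes had a median of -0.85. Only TIP3-2 was called at 20 min (background 3.76%), and edgeR and DESeq2 both gave 0 for 30 min, with 2 members at an unadjusted p under 0.05 (background 5.51%). PIP2-1 and TIP3-1 were the 2 called for 45 min, against 15.7% of all genes, and 4 were called for 60 min, against 27.0%. At 90 min 6 were called (16.6%). By 120 min 16 were called, with 7 higher and 9 lower (37.1%, with 18.6% higher and 18.5% lower). At 5 min 0 or 1 were called without KCl replicate 1 or 2 or N replicate 3, and at 120 min 9 or 10 without KCl replicate 1 or 2 or N replicate 2 or 3. At 45, 60 and 90 min the lowest counts without 1 replicate were 0 (KCl replicate 2), 2 (KCl replicate 2 or N replicate 3) and 3 (KCl replicate 1 or N replicate 2 or 3). At 120 min the medians were -0.12 over the members, 0.03 over all genes and -0.81 over the NIP genes.

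At 10 and 15 min together the summed aquaporin level was 6512 to 8875 CPM in the KCl libraries and 5005 to 6423 CPM in the N libraries, without overlap. The 6 root markers were lower with N as well, at 368 to 588 CPM against 514 to 677 CPM with KCl at 10 min, with overlap, and at 399 to 449.8 CPM against 589.8 to 839 CPM at 15 min, without overlap. CASP1, which made up 54.1% of this sum in the median root library, was called lower at 15 min. The photosynthesis markers summed to 223 to 574 CPM with N and 153 to 200.1 CPM with KCl at 15 min. The part of these shifts in the lower aquaporin levels with N was not tested. A fit of only the libraries compared called 0 members at 10 min, and the count there was 1 without KCl replicate 1, 2 without N replicate 3 and 5 without N replicate 1.

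The early and late root calls also came with such shifts. At 5 min the root markers summed to 205 to 224 CPM with N and 150.3 to 187 CPM with KCl, with 0 of 6 called. At that time the share of reads in no gene was 1.43% to 1.89% with N and 2.36% to 2.71% with KCl, and the share placed at several sites was 8.61% to 12.8% against 14.3% to 16.6%. None of these 3 ranges overlapped between the arms. At 120 min the root markers were lower with N without overlap, at 202 to 215 CPM against 238 to 296 CPM, where CASP1, COBL9, PLT1 and SCR were called, 2 higher and 2 lower. The share of reads in no gene was then higher with N, at 1.28% to 1.52% against 0.916% to 1.10%, again without overlap. Depth at 120 min did not overlap either, at 43038100 to 101168000 gene counts with N and 36062600 to 42572100 with KCl. Root libraries at time 0 were deep too, at 80724900 to 143270000. The part of these shifts in the root calls, or in levels near those at time 0, was not tested.

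Among the root PIP genes, PIP2-3 was higher with N late in the course, with its split from PIP2-2 uncertain. At 120 min it had 47.1, 50.6 and 47.8 CPM with N and 20.8, 20.9 and 15.1 CPM with KCl. All N libraries were higher, 2.57-fold on average (log2 fold change 1.36, SE 0.19, adjusted p = 1.7e-07), and it was called at 90 min too (0.71). The means were 48.5 ± 1.87 CPM (SD, n = 3) with N and 18.9 ± 3.28 CPM (SD, n = 3) with KCl. PIP1-5 had 32.3, 29.1 and 26.9 CPM with N and 45.1, 53.0 and 52.6 CPM with KCl at 120 min. The N libraries were lower without overlap (log2 fold change -0.77, SE 0.18, adjusted p = 0.000766), as at 10, 15 and 90 min (-0.65, -0.77 and -0.58), the reverse of its higher level at 5 min. Its mean at time 0 was 28.1 CPM, near its level with N at 120 min, and the KCl level was above time 0 then (log2 fold change 0.84, SE 0.18, adjusted p = 0.00018). PIP2-4, known from roots, had 11.8, 7.36 and 8.26 CPM with N and 20.0, 16.3 and 21.3 CPM with KCl at 120 min. Its N libraries were lower (log2 fold change -1.07, SE 0.28, adjusted p = 0.00237), as at 10 and 15 min (-0.88 and -0.96).

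PIP2-1 and PIP2-2 had their smallest p at 10 or 15 min, in the libraries that stand apart. PIP2-1 had 717, 775 and 583 CPM with N and 1189, 884 and 793 CPM with KCl at 10 min. The N libraries were lower by a narrow gap (log2 fold change -0.48, SE 0.12, adjusted p = 0.00556), and the call was lost without KCl replicate 1 (0.202), without N replicate 3 (0.111) and in a fit of only the libraries compared (0.294). It was also called lower at 15, 45 and 60 min (-0.45, -0.38 and -0.33), and over the times without 10 and 15 min its adjusted p was 0.00109. PIP2-2 had 451, 558 and 491 CPM with N and 749, 778 and 657 CPM with KCl at 15 min. The groups did not overlap (log2 fold change -0.60, SE 0.16, adjusted p = 0.00577), but at 120 min PIP2-2 was higher with N (log2 fold change 0.49, SE 0.16, adjusted p = 0.0169), and its adjusted p without 10 and 15 min was 0.00429.

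TIP4-1, which passes water and urea, had the smallest p of all members in roots. At 120 min it had 38.2, 30.2 and 33.5 CPM with N and 101, 79.4 and 61.7 CPM with KCl. The N libraries were all lower, 2.37-fold on average (log2 fold change -1.24, SE 0.21, adjusted p = 8.97e-06). The means were 34.0 ± 4.01 CPM (SD, n = 3) with N and 80.7 ± 19.6 CPM (SD, n = 3) with KCl. It was higher with N at 5 min, lower at 10 min (-0.71) and lower again at 90 min (-0.61). TIP1-2 had 154, 274 and 241 CPM with N and 565, 398 and 353 CPM with KCl at 10 min. Its N libraries were lower (log2 fold change -0.99, SE 0.23, adjusted p = 0.00253), and the call was lost without KCl replicate 1 (0.0967) and in a fit of only the libraries compared (0.115). It was lower at 15 and 120 min as well (-0.92 and -0.60), with an adjusted p of 0.0187 over the times without 10 and 15 min. TIP3-1 had 0.818, 2.71 and 1.22 CPM with N and 0.325, 0.742 and 0.397 CPM with KCl at 15 min. At this low level the groups did not overlap (log2 fold change 1.68, SE 0.44, adjusted p = 0.00401), and the call was lost without N replicate 2 (0.0555). TIP3-1 was also called higher at 45, 60 and 120 min (1.06, 0.94 and 1.11), with an adjusted p of 0.00033 without 10 and 15 min.

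NIP1-1, NIP5-1, NIP6-1 and NIP7-1 were lower with N than with KCl late in roots. NIP1-1, biased to roots at time 0, had 53.3, 43.2 and 43.2 CPM with N and 144, 124 and 115 CPM with KCl at 120 min. The N libraries were 2.73-fold lower on average and did not overlap with KCl (log2 fold change -1.45, SE 0.27, adjusted p = 3.71e-05), and it was lower at 90 min too (-1.18). The means were 46.6 ± 5.83 CPM (SD, n = 3) with N and 127 ± 14.8 CPM (SD, n = 3) with KCl, beside 46.9 CPM at time 0, so that the level with N was near that at time 0 and the level with KCl was above it (log2 fold change 1.45 for KCl against time 0). NIP5-1, the channel through which roots take up boric acid, had 45.3, 42.7 and 48.6 CPM with N and 77.8, 85.2 and 95.8 CPM with KCl at 90 min. All N libraries were lower (log2 fold change -0.90, SE 0.20, adjusted p = 0.00109), as at 60 min (-0.64), and both arms were below its time 0 mean of 175 CPM. NIP6-1 was lower at 90 and 120 min (-0.74 and -1.18), where the gene across its end on the opposite strand had a log2 fold change of 0.88 at 120 min. NIP1-2 was lower at 10, 15 and 120 min (-0.73, -0.76 and -0.48), and NIP3-1 at 15 min (-0.89). NIP7-1 was lower at 120 min (-2.18), with means of 0.0841 CPM with N and 0.419 CPM with KCl.

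**Figure D3:**
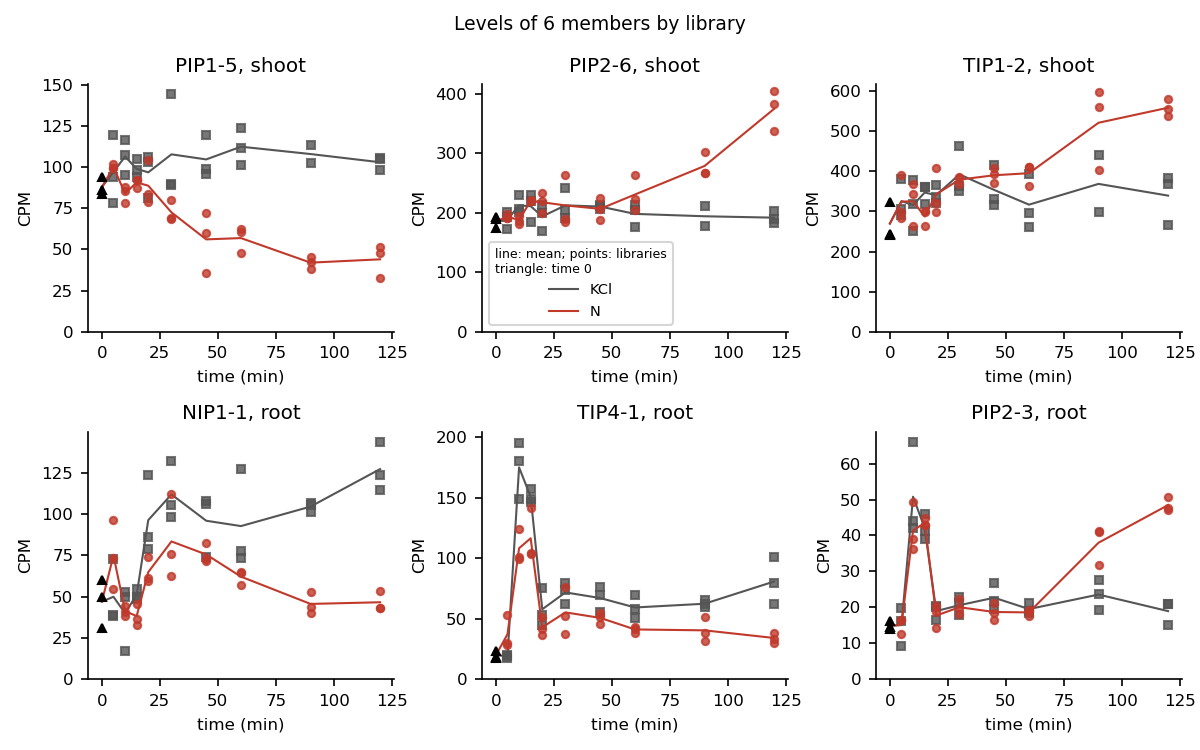
Level in CPM (vertical axes, from 0) of 6 aquaporins by time in min, with 1 point per library, triangles for time 0 and lines through the group means of N and KCl. In shoots PIP1-5 separates downward and PIP2-6 and TIP1-2 upward with N, and in roots TIP4-1 and NIP1-1 separate downward and PIP2-3 upward by 120 min.

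The remaining root calls over all times were spread over the course. TIP2-3 was lower at 10 and 60 min (-1.10 and -1.32) and TIP1-1 at 15 and 120 min (-0.71 and -0.51). TIP2-1 and TIP2-2 were lower at 10 and 15 min only among the single times tested, with -1.17 and -1.05 at 15 min. PIP1-2 was lower at 10 min (-0.44), and PIP1-1 was lower at 10 min (-0.55, with overlapping libraries) and higher at 120 min (0.43). PIP1-3 was higher at 120 min (0.50) and PIP2-7 at 5 min. SIP1-1 was lower at 15 min (-0.35), and SIP2-1 was higher at 10 min with overlapping libraries (0.68). TIP3-2 was higher at 20 min (2.86), with means of 0.391 CPM with N and 0.0576 CPM with KCl and overlapping libraries. NIP4-2 passed at no single time. NIP2-1 was higher at 120 min (log2 fold change 1.31, SE 0.53, adjusted p = 0.0491), a call that was lost with the replicate block (0.0567), with no filter on low counts (0.0524) and without KCl replicate 2 or 3 or N replicate 2 or 3. PIP2-8 (120 min, 0.57) and PIP1-4 (10 min, -0.42) were called at a single time but not over all times, and SIP1-2, PIP2-5 and PIP2-6 at none.

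Several of these calls over all times were lost in 1 or more of the 6 fits that left out 1 replicate of 1 arm at every time. The adjusted p passed 0.05 without N replicate 1 for PIP1-1 (0.0819), without KCl replicate 1 for PIP1-3 (0.0749) and without N replicate 2 for TIP3-2 (0.124). It passed 0.05 without KCl replicate 2 or N replicate 3 for PIP2-7 (up to 0.0898), without KCl replicate 1 or N replicate 1 for TIP2-1 (up to 0.142) and NIP4-2 (up to 0.264), and without KCl replicate 2 or N replicate 2 for SIP1-1 (up to 0.0716). PIP1-2 (up to 0.141) lost its call without KCl replicate 1 or N replicate 1 or 3. SIP2-1 (up to 0.302) lost it without KCl replicate 1, 2 or 3 or N replicate 1, NIP3-1 (up to 0.263) without KCl replicate 1 or N replicate 1, 2 or 3, and NIP2-1 (up to 0.207) in every case but KCl replicate 3.

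The N effect differed between 30 and 120 min for 3 root members, against a background of 10.4%, and for 1 without KCl replicate 2 or 3 or N replicate 1 or 3. PIP2-3 had a log2 effect 1.39 higher at 120 min (SE 0.26, adjusted p = 0.000361). For TIP4-1 the difference was -0.88 (SE 0.29, adjusted p = 0.0445), and for NIP7-1 it was -2.20 (SE 0.74, adjusted p = 0.0465).

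From 45 min on some members were called in both organs. Among the 28 members tested in both organs, PIP2-1 was lower and TIP3-1 higher in both at 45 and 60 min. These are 2 of the 28 members at each time, where shoots had 6 calls and roots 2 and 3. Of all genes tested in both organs, 8.21% and 12.6% were called in both at these times. At 90 min PIP1-5, NIP1-1 and NIP6-1 were lower in both, 3 of the 28 members, against 10.4% of all genes called in both. Shoots then had 10 calls among the 28 and roots 6. At 120 min 4 of the 28 members were called in both, where shoots had 9 calls and roots 15. PIP1-5 and NIP6-1 were lower, PIP2-3 higher, and TIP1-2 went in opposite directions. Of all genes, 19.2% were called in both at 120 min.

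Tested directly, the N effect differed between shoots and roots over the 9 times for 8 of 32 members, against 36.0% of all genes, and for 7 without 10 and 15 min, against 27.4%. TIP1-2 had the smallest p (adjusted p = 1.3e-05), with a log2 fold change at 120 min of 0.72 in shoots and -0.60 in roots and a difference of 1.32 (SE 0.30). This difference held in each of the 6 fits without 1 replicate, with an adjusted p of at most 0.00665. PIP1-5 was lower with N than with KCl in both organs at 90 min, with a log2 fold change of -1.36 in shoots and -0.58 in roots, and the difference between organs had an adjusted p of 0.00227 over all times and 0.0636 without KCl replicate 2. The other 6 were PIP1-1, PIP2-5, PIP2-7, TIP4-1, NIP5-1 and SIP2-1, with adjusted p between 0.00879 and 0.0441, and each of them lost the call in 2 to 5 of 6 fits without 1 replicate. The count was 3 to 5 without KCl replicate 1, 2 or 3 or N replicate 1 or 3.

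Most root aquaporins also differed between the KCl control and time 0, and mostly upward. In roots, 30 of 32 members differed between KCl and time 0 over the 9 times, 25 higher and 5 lower, against 89.3% of all genes (41.0% higher and 48.3% lower). Without 10 and 15 min the count was 24, against a background of 59.9%. KCl supply, handling and time since time 0 cannot be told apart, and this comparison shares its KCl libraries with that of N against KCl. At 5 min edgeR and DESeq2 both called 0 members in roots, with 0 at an unadjusted p under 0.05 (background 0%). At 10 min 27 were called, 24 higher, against 72.9% of all genes called and 34.3% called higher, with a median log2 fold change of 1.58 over the members and -0.06 over all genes. At 120 min 21 were called, 18 higher (48.1% and 24.0%), with a median of 0.52 over the members and -0.01 over all genes.

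The 3 root members with the smallest p were PIP genes. PIP1-3 had 945, 626 and 681 CPM at 10 min with KCl and 163, 177 and 165 CPM at time 0. All KCl libraries were far above time 0, 4.16-fold on average (log2 fold change 2.06, SE 0.14, adjusted p = 5.55e-17). PIP2-7 had 685, 773 and 702 CPM at 15 min and 211, 197 and 201 CPM at time 0, again without overlap (log2 fold change 1.75, SE 0.12, adjusted p = 2.34e-17). PIP2-1 had 1189, 884 and 793 CPM at 10 min and 257, 270.4 and 257 CPM at time 0 and did not overlap either (log2 fold change 1.77, SE 0.13, adjusted p = 2.1e-16). These 3 peaks lie in the libraries that stand apart, and from 20 min on the summed aquaporin level under KCl was 2693 to 3671 CPM, against 2291 to 2586 CPM at time 0 and 5 min. At 120 min, outside those libraries, TIP4-1 (2.03), PIP2-4 (1.94), TIP2-1 (1.78), NIP3-1 (1.64) and NIP1-1 (1.45) had the largest rises on the log2 scale among the members called. NIP2-1 (-1.76), TIP3-1 (-1.67) and NIP5-1 (-1.24) were the 3 called lower. TIP4-1, NIP1-1 and PIP2-4, which were lower with N than with KCl at 120 min, had log2 fold changes of -1.24, -1.45 and -1.07 in that comparison.

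**Figure D4:**
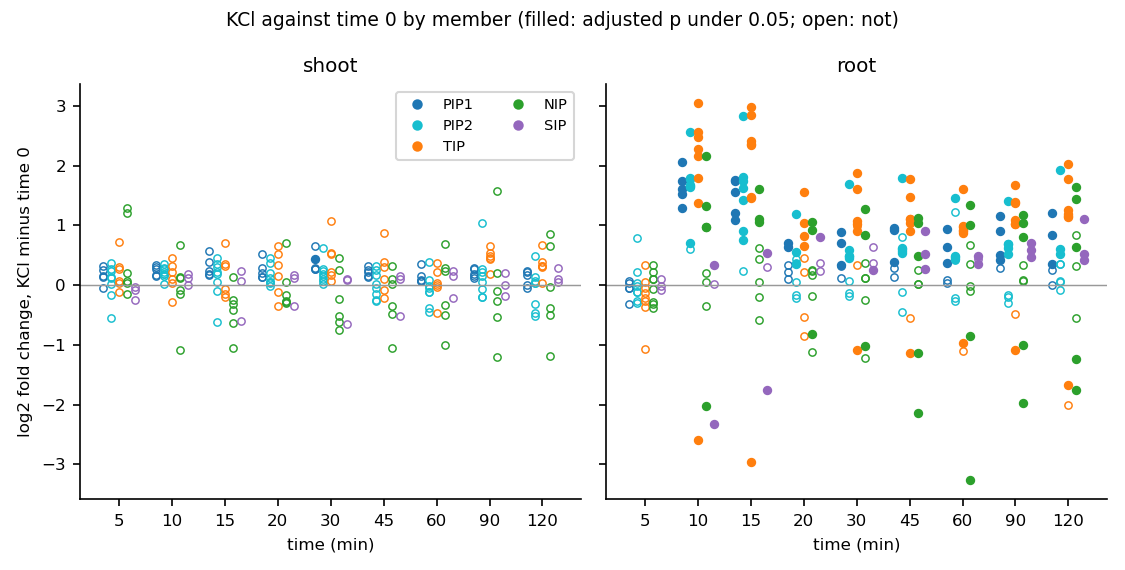
Log2 fold change of KCl against time 0 (vertical axis) at each time in min (horizontal axis) for shoots and roots, with 1 point per aquaporin coloured by subfamily, filled where the adjusted p was under 0.05 and open where not. In roots 24 filled points lie above 0 at 10 min and 18 at 120 min, and shoots show 1 filled point.

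In shoots the same comparison called 2 of 28 members over all times, against 8.75% of all genes. PIP2-1 had 381, 468 and 436 CPM with KCl at 10 min and 353, 299 and 355 CPM at time 0. The KCl libraries were higher, but the time alone did not pass (log2 fold change 0.35, SE 0.14, adjusted p = 0.692), and the call over all times (0.00648) was lost without KCl replicate 1 or 2 (up to 0.146). NIP2-1 had 26.0, 3.55 and 5.45 CPM with KCl at 5 min and 9.59, 3.23 and 2.40 CPM at time 0. KCl replicate 1 was far above the rest and the groups overlapped (log2 fold change 1.21, SE 0.52, adjusted p = 0.238), and without that replicate the adjusted p over all times went from 0.00419 to 0.4. At single times, PIP1-2 at 30 min was the 1 call in shoots (0.43, background 3.07%).

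**Figure D5:**
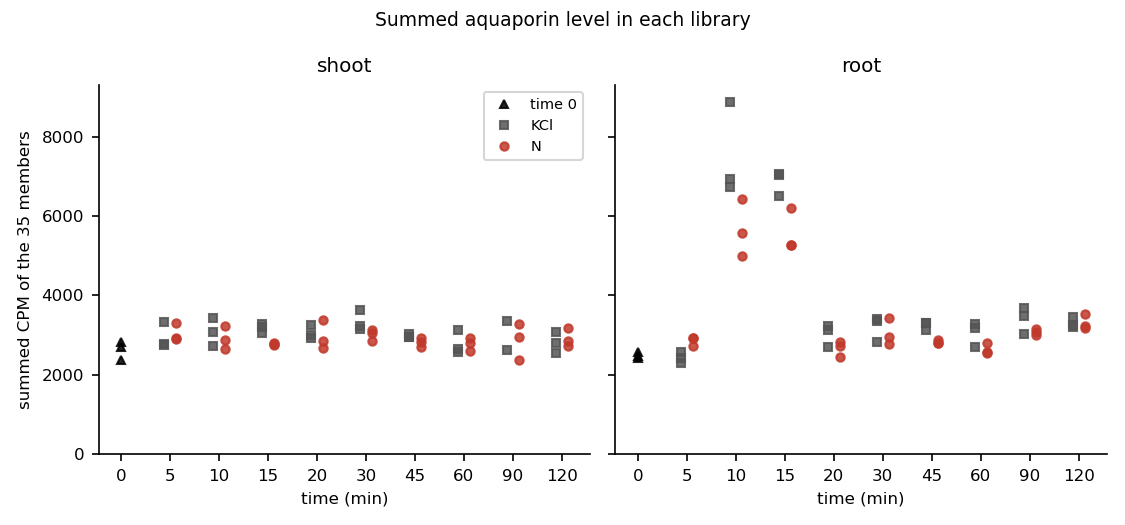
Summed level in CPM of all 35 aquaporins in each library by time (min) for shoots and roots, with N and KCl in separate colours. Root libraries at 10 and 15 min reach 5005 to 8875 CPM, with KCl above N, while all other libraries lie between 2291 and 3671 CPM.

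Many genes listed beside the aquaporins, for PIP regulation and traffic or for boron, proton and ammonium transport, also changed with N. They are called partner genes here, and the list was written with earlier results of these data known. Of 25 partner genes, 22 differed between N and KCl over all times in roots (8 higher and 14 lower) and 15 in shoots (6 higher and 9 lower), beside the backgrounds of 61.0% and 47.4% given above. Among 11 genes of PIP regulation and traffic, 4 were higher and 4 lower in roots, and 2 higher and 4 lower in shoots. Of 3 boron exporters, 1 was higher and 2 were lower in roots and 1 was lower in shoots. Of 6 proton pump genes, 2 were higher and 4 lower in roots, and 3 higher and 2 lower in shoots. Of 5 ammonium transporters, 1 was higher and 4 were lower in roots, and 1 higher and 2 lower in shoots. BOR1, which loads boron into the xylem downstream of NIP5-1, had 24.4 ± 1.51 CPM with KCl and 102 ± 16.3 CPM with N in roots at 90 min (SD, n = 3, log2 fold change 2.09), while NIP5-1 was lower. RMA1, a ubiquitin ligase that holds PIP2-1 back in the endoplasmic reticulum, was higher in roots at 90 min (1.49) and in shoots at 20 min (1.24). XND1, a transcription factor that limits root water transport, was lower in roots at 90 min (-1.25) and in shoots at 120 min (-2.89). The plasma membrane proton pumps AHA1 and AHA2 were higher in both organs, at 0.99 and 1.54 in roots at 90 min and 0.67 and 1.22 in shoots at 120 min. The vacuolar pump subunit VHA-A2 was lower in both, in roots at 15 min (-1.24) and in shoots at 90 min (-0.46). RMA2, a relative of RMA1, was lower in shoots (-2.05 at 90 min) and higher in roots (0.50 at 120 min), and RMA3, another, was lower in shoots (-1.14 at 45 min) and did not pass in roots. The ammonium transporter AMT1-1 was lower in shoots (-1.67 at 120 min) and higher in roots (1.56 at 5 min), and AMT2-1 was lower in both at 120 min (-0.74 in roots and -0.70 in shoots). Differences between the organs were not tested for these partner genes.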

How the data were processed

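The deposited files hold whole-number read counts per gene for 114 libraries. TAIR10, TopHat2, HTSeq and limma are named in the submitters' processing notes, with no roles, order or strand setting. The 5 closing lines that name no gene were kept out of library sizes and tests. Groups came from sample titles, and 1 root library at time 0 whose source name says shoot was kept as root, as its title and organ label say. Libraries under 1000000 gene counts were left out, which left 113.

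Counts were tested with edgeR 4.0.16 in R 4.3.3: low counts filtered (filterByExpr, minimum count 10, minimum total 15), TMM library sizes, a quasi-likelihood fit with 1 mean per group within each organ, and Benjamini-Hochberg adjustment over all genes tested, with calls at an adjusted p under 0.05. "Over all times" is an F-test over 9 contrasts, and its direction is that at the time of smallest p. Organs were compared in 1 fit of the 113 libraries, from which the printed CPM come. SE is the log2 fold change over the root of F. Floors are 3 counts and cover counting error only. Coding lengths and sequences are those of the first listed isoform in RefSeq TAIR10.1, which held all 35 members and 28007 of the 28712 identifiers. The build of the files is named TAIR10, so no genome coordinates are given.

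The value in every library is given for up to 10 called members per organ with the smallest p over all times, up to 3 for KCl against time 0 per organ, up to 6 by size of the organ difference, and up to 6 partner genes per organ by their means or fold changes. The members are the whole family, with no choice among its genes by a measured value. The family and the lists of partner and marker genes were chosen with earlier results of these data known. Alternatives were RLE factors, no filter, DESeq2 1.42.0, a replicate block, all libraries kept, only the libraries compared, each replicate left out, and, chosen after seeing the data, no libraries at 10 and 15 min. The test script was tested on simulated data. Within each organ, replicate numbers were checked for pairing of N with KCl libraries and did not pair them. Pairing of shoot with root libraries was not checked, and the tests between organs treat them as independent.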

Additional observations from a re-analysis of the deposited data

Results flagged for a closer look

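The N effect differed between shoots and roots over all 9 times for 8 of 32 members, against 36.0% of all genes, by a test of the difference itself. The adjusted p was 1.3e-05 for TIP1-2, 0.00227 for PIP1-5, 0.00879 for PIP2-7, 0.0286 for PIP1-1, 0.032 for NIP5-1, 0.0387 for PIP2-5, 0.0408 for TIP4-1 and 0.0441 for SIP2-1. Leaving out 1 replicate ended the call for PIP1-5 (KCl 2, 0.0636), PIP2-7 (N 1 or 3, up to 0.243), PIP1-1 (KCl 1 or 2 or N 1 or 3, up to 0.09), NIP5-1 (KCl 1, 2 or 3 or N 1, up to 0.378), PIP2-5 (all but KCl 2, up to 0.214), TIP4-1 (all but N 1, up to 0.214) and SIP2-1 (KCl 1, 2 or 3 or N 1, up to 0.324). Without 10 and 15 min PIP2-5 (0.0618) and TIP4-1 (0.215) missed the threshold, and PIP2-1 passed it (0.0133, against 0.0563 with those times).

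The N effect at 120 min differed from that at 30 min for 2 of 28 members in shoots, against 16.9% of all genes, and for 3 of 32 in roots, against 10.4%, again by a direct test. These shares are below those over all genes, and leaving out 1 replicate gave 1 to 3 members in shoots and 1 to 2 in roots. On the log2 scale the difference was 0.976 for PIP2-6 and 0.776 for TIP1-2 in shoots, and 1.39 for PIP2-3, -0.878 for TIP4-1 and -2.2 for NIP7-1 in roots.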

How the results depend on the processing

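Direction was checked for each called member, for N against KCl at its time of smallest p, and none reversed under any alternative. These times were picked for their small p, and directions at other times and in other comparisons were not part of this check. Counts of called members moved by more than 1.5 times under the following settings. With only the libraries compared, shoots had 0 calls at 20 min (against 1), 0 at 30 min (against 1) and 6 at 90 min (against 10), and roots had 0 at 5 min (against 3), 0 at 10 min (against 14) and 2 at 20 min (against 1). With DESeq2, roots had 5 calls at 5 min and 2 at 20 min, and keeping all libraries gave 0 in shoots at 30 min. Without 10 and 15 min, roots had 1 call at 30 min (against 0) and 0 at 20 min, where TIP3-2, the 1 member called, was no longer tested. The N effect at 120 min minus that at 30 min in roots (3 called) gave 1 without the filter, 6 with DESeq2, 6 without 10 and 15 min and 5 with only the libraries compared. Apart from the loss of TIP3-2 at 20 min, why these counts moved was not tested, except that the fits of only the libraries compared have fewer samples.

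Leaving out 1 replicate at a time gave ranges that reach past 1.5 times for these counts. Over all times these were 7 to 15 shoot members for N (against 12), 0 to 2 shoot members for KCl (against 2) and 3 to 8 members whose N effect differed between organs (against 8). In shoots the range was 0 to 2 at 20 min, 0 to 1 at 30 min, 2 to 6 at 45 min, 3 to 5 at 60 min and 6 to 10 at 90 min, or 21 to 29 calls over single times (against 33). In roots it was 0 to 4 at 5 min, 1 to 18 at 10 min, 0 to 1 at 20 min, 0 to 1 at 30 min, 0 to 2 at 45 min, 2 to 4 at 60 min, 3 to 6 at 90 min and 9 to 16 at 120 min, or 28 to 60 calls over single times (against 58). The effect at 120 min minus that at 30 min gave 1 to 3 members in shoots and 1 to 2 in roots. The range stayed within 1.5 times for N over all times in roots (20 to 27), KCl over all times in roots (28 to 30), the organs at time 0 (26 to 28), shoots at 120 min (7 to 9) and roots at 15 min (8 to 12).

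With the replicate block, 12 shoot and 25 root members differed over all times, 32 calls in shoots and 58 in roots were made at single times, and the block moved no count of calls by over 1.5 times. Correlations of same-numbered deviations ran from -0.475 to 0.560 in shoots (26 pairs) and from -0.345 to 0.287 in roots (27 pairs), and at 0 of 9 times were all pairs over 0.1. Of the values for single members, 399 kept their direction and side of the threshold over the alternatives and 54 kept the direction only. A low count limits TIP3-1, TIP3-2, NIP4-2 and NIP7-1, and the shoot KCl group at 90 min has 2 libraries, where leaving out KCl replicate 1 or 3 leaves 1 that is assumed to vary like the other groups.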
